A study of Mus musculus with 14 samples.

Results

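The transcripts of 8 NLRP genes of mouse oocytes, Nlrp4a, Nlrp4b, Nlrp4c, Nlrp4e, Nlrp9a, Nlrp9b, Nlrp9c and Nlrp14, were followed in 14 RNA libraries. The genes were taken by symbol from the count tables, and all 8 stood in both tables, among 16417 genes that both tables list. The libraries came from ovulated oocytes of Clpxfl/fl; Zp3-Cre mice (labelled CKO, n = 3), ovulated oocytes of Clpxfl/fl mice without Cre (labelled WT, n = 3), germinal vesicle (GV) oocytes of CKO mice (n = 4) and GV oocytes of WT mice (n = 4). Both genotypes carry the floxed Clpx alleles, and Clpx encodes the unfoldase subunit of a protease of the mitochondrial matrix. Zp3-Cre is driven by the promoter of a zona pellucida gene, so the deletion takes place in growing oocytes and not in the somatic cells around them. In GV oocytes the nucleus is intact and meiosis is arrested in prophase. Ovulated oocytes are past that arrest. The labels give neither the age of the mice nor the number of oocytes and animals behind a library, so the spread between libraries may be technical in part.

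NLRP proteins combine an N-terminal pyrin domain, a nucleotide-binding NACHT domain and C-terminal leucine-rich repeats. Some family members, such as NLRP3, assemble inflammasomes in immune cells, but a separate branch is transcribed mainly in germ cells, and in rodents its Nlrp4 and Nlrp9 genes were multiplied by duplication. Maternal NLRP14 is known in mice to be needed for development of the early embryo and has been tied to the mitochondrial exchanger SLC8B1 and to the chromatin protein UHRF1. Knockdown of Nlrp4e in mouse oocytes has been linked to arrest of early embryos, and mouse NLRP9B is known from the intestine as part of an antiviral inflammasome. Transcripts of such maternal genes build up while the oocyte grows, transcription is silent by the end of growth, and many of these RNAs are then removed or readenylated as meiosis resumes.

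All 8 genes lie on chromosome 7 of mouse build mm10, each annotated as a protein-coding gene in GENCODE. The spans below are those of the whole gene. Nlrp4c occupies chr7:6045161-6105150, Nlrp4b chr7:10687789-10730168 and Nlrp9b chr7:19991465-20073306. Nlrp4e is at chr7:23301192-23362277. A tight group holds Nlrp9c on the minus strand at chr7:26322473-26403700, Nlrp4a at chr7:26435113-26476142 and Nlrp9a at chr7:26535023-26575615. Nlrp14 lies far from the others, at chr7:107166990-107198102. The coding sequences are close copies within the branches. Nlrp4c and Nlrp4e are identical at 93.6% of aligned positions, Nlrp9a and Nlrp9c at 87.6%, Nlrp4a and Nlrp4c at 86.6%, and Nlrp9a and Nlrp9b at 84.1%. Nlrp4b stands further off, at 70.7% to 71.3% identity with the other Nlrp4 members, and Nlrp14 shares between 54.4% and 56.5% with the remaining 7. The longest identical stretch between members is 129 coding bases of Nlrp9a and Nlrp9b, at coding positions 589 to 717 of both, shown because a short read from it cannot be assigned to 1 gene:
Nlrp9a and Nlrp9b: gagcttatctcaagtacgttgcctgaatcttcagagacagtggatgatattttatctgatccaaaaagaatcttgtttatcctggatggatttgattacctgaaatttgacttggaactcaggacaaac

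These copies bear on how far each count can be trusted. Of the 50-base windows of the annotated transcript, 36.9% of those of Nlrp4e also occur in another gene, most of them in the predicted gene Gm16443 (31%). The share was 11.9% for Nlrp4c, 6.54% for Nlrp9a, 6.22% for Nlrp9b, 4.99% for Nlrp9c and 3.04% for Nlrp4a, and no window of Nlrp4b or Nlrp14 occurred elsewhere. With 100-base windows the shares were smaller. They were 11.5% for Nlrp4e, 1.36% for Nlrp9b, 0.939% for Nlrp4c, 0.927% for Nlrp9a, 0.449% for Nlrp9c and 0% for Nlrp4a. The extent of sharing thus depends on the read length, which is not stated here. The deposited counts show the same division. Nlrp14 had a fractional count in 1 of 14 libraries and Nlrp4b in 5, whereas Nlrp4a, Nlrp4c, Nlrp9a and Nlrp9c were fractional in all 14 and Nlrp4e and Nlrp9b in 13. For Nlrp4a the count over FPKM also varied most between libraries, with a coefficient of variation of 6.31% in ovulated and 8.93% in GV oocytes. Values of Nlrp4e, and to a lesser degree those of Nlrp4a, Nlrp4c and the 3 Nlrp9 genes, are therefore uncertain as values of single genes, and Nlrp14 and Nlrp4b are the members least open to such sharing.

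The ends of the transcripts are shown because this library method, SMART-SeqII, starts cDNA from poly(A) tails, so the values are levels of polyadenylated RNA. The Nlrp9 ends are nearly the same (in Nlrp9c the letters of both signals overlap), and the last of the lines below, Nlrp4c, is the end that also carries a cytoplasmic polyadenylation element next to its poly(A) signal. Capitals mark the poly(A) signal (AATAAA or ATTAAA) and, in Nlrp4c, the element TTTTAT in front of it:
Nlrp9a, chr7:26574100-26574129: aatgtttatactacaagcacattcAATAAA
Nlrp9b, chr7:20062892-20062921: aatgtttatattacaagcacatttAATAAA
Nlrp9c, chr7:26364710-26364739: aatgtttatattacaagcacATTAAATAAA
Nlrp4c, chr7:6105105-6105134: gctgttttgtgttTTTTATTAAAtAATAAA

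Within the last 100 bases of the annotated transcript on the sense strand, 6 of the 8 members hold a poly(A) signal, and Nlrp4a and Nlrp14 hold none of these letters. Over 19337 genes, 78.6% hold such a signal. The element, searched as TTTTAT or TTTTAAT, was found in Nlrp4a and Nlrp4c and in 17.9% of all genes. In Nlrp4a it lies 47 bases from the annotated end. These matches describe the annotation and say nothing of tail length in the oocytes.

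Promoter sequences (RefSeq, GRCm38.p6) were matched for 7 members, all but Nlrp14. Nlrp4b, Nlrp4c and the downstream of the listed Nlrp4a starts share a stretch around the start, which is shown because it is the clearest sequence that these promoters have in common. Capitals mark matches to the E-box CANNTG, the letters bound by basic helix-loop-helix factors, counted on both strands because the motif is its own reverse complement:
Nlrp4a, chr7:26435560-26435629: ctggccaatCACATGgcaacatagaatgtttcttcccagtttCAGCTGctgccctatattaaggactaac
Nlrp4b, chr7:10687735-10687804: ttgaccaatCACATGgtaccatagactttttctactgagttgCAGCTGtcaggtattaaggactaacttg
Nlrp4c, chr7:6045139-6045208: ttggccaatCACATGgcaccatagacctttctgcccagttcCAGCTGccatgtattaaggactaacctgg

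The stretch starts 54 bases before the Nlrp4a start, 58 before the first listed Nlrp4b start and 22 before the Nlrp4c start. The longest run with an E-box that all 3 share is 12 bases, ccaatcacatgg. With 1 promoter taken per gene, it occurs on either strand in 5 of 27025 promoters, Nlrp4b and Nlrp4c among them. The run was chosen for being shared by these 3 genes after the sequences had been seen. Its presence in them is therefore fixed by the choice, and the count only describes how rare the letters are. An E-box of any kind occurs in 72.1% of promoters, with 1 promoter taken per gene. Every matched member holds an E-box, but so few and related genes cannot be told apart from that background. The letters TAATTA or TAATTG, a motif of the oocyte homeobox factor NOBOX, occur 4 times in the Nlrp9a promoter and once in that of Nlrp9b, in none of the other matched members, and in 12.6% of all promoters. Over whole promoters the closest pair was Nlrp9a and Nlrp9c, identical at 71.8% of aligned positions, ahead of Nlrp4b and Nlrp4c at 63.5%.

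Total counts per library lay between 25086506 and 28471453. Clpx, the targeted gene, was at 0.522 ± 0.174 CPM (counts per 1e+06 of the scaled library size; SD, n = 3) in ovulated CKO oocytes, against 22.2 ± 1.32 CPM (SD, n = 3) in ovulated WT oocytes. In GV oocytes Clpx was at 0.961 ± 0.333 CPM in CKO and 38.6 ± 8.64 CPM in WT (SD, n = 4 each). The labelled cell type held, since the summed level of the 14 oocyte markers was at least 11803 CPM in every library. Lists of other cell types were summed over their genes in both tables, on the scale of all 14 libraries. The 13 granulosa and cumulus genes summed to 68.1 to 108 CPM in ovulated CKO, 65.99 to 129 CPM in ovulated WT, 55.8 to 76.4 CPM in GV CKO and 65.9 to 79.6 CPM in GV WT oocytes. Cyp19a1 was the largest part, with means of 57.8 CPM in ovulated CKO, 75.9 CPM in ovulated WT, 41.4 CPM in GV CKO and 43.5 CPM in GV WT oocytes, and Nr5a2, Pfkp and Kitl followed. Single ovulated WT libraries reached 6.29 CPM for Gja1 and 5.37 CPM for Fst, and Fshr did not exceed 1.19 CPM in any library. The 7 blood and stromal genes summed to 56.0 to 77.2 CPM in ovulated CKO, 45.8 to 109 CPM in ovulated WT, 20.3 to 40.4 CPM in GV CKO and 30.6 to 44.9 CPM in GV WT oocytes, mostly Pecam1, with Dcn up to 9.03 CPM and Hbb-bs up to 0.256 CPM. Of genes in 1 table, scaled within the stage, the cumulus gene Tnfaip6 reached 14.6 CPM in 1 ovulated WT library, and Foxl2, Amh and Ptprc did not exceed 0.160 CPM in GV oocytes. The part of other cell types in the results below was not tested. The oocyte list itself summed to 12222 to 14767 CPM in ovulated CKO, 11803 to 16312 CPM in ovulated WT, 23945 to 51930 CPM in GV CKO and 25724 to 40885 CPM in GV WT oocytes. In bulk libraries of this kind fewer transcripts per oocyte and fewer oocytes per library cannot be told apart, and each value is a share of the library.

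Levels were compared between genes by FPKM, which divides by gene length, within the table of 1 stage. Nlrp14 was the most abundant member in every group and had the 50th highest mean of 18076 genes in GV CKO and the 44th highest in GV WT oocytes. Its level in the GV CKO libraries was 1090, 2577, 1870 and 2512 FPKM, against 2146, 1534, 2096 and 2186 FPKM in the GV WT libraries. The ranges overlapped, with the first CKO library below all others. In ovulated oocytes Nlrp14 had 598.3, 597.96 and 317 FPKM in CKO, against 268, 333 and 445 FPKM in WT libraries, and again the genotypes overlapped.

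Below Nlrp14 came 5 genes of similar level, the 3 Nlrp9 genes, Nlrp4a and Nlrp4b, with group means between 94.1 and 285 FPKM over the 4 groups. In GV CKO oocytes the order was Nlrp9c (215 FPKM), Nlrp4b (196), Nlrp9a (170), Nlrp9b (151) and Nlrp4a (149), all in FPKM. Each of these neighbours overlapped the next, and Nlrp9b exceeded Nlrp4a in 2 of 4 libraries. In GV WT oocytes Nlrp4b led with 216 FPKM, then Nlrp9c (204), Nlrp9a (174), Nlrp4a (157) and Nlrp9b (152), with every neighbour overlapping the next. In ovulated oocytes Nlrp4a stood higher in the order. It had 237 ± 5.14 FPKM (SD, n = 3) in CKO, next to Nlrp9c with 245 ± 44.8 FPKM, and 285 ± 65.96 FPKM (SD, n = 3) in WT, second to Nlrp14 with 349 ± 89.3 FPKM. The ranges of Nlrp14 and Nlrp4a did not overlap in ovulated CKO libraries. They did in ovulated WT libraries, although Nlrp14 was the higher gene in each of the 3.

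Nlrp4e and Nlrp4c closed the order in every group. Nlrp4e averaged 54.8 ± 4.36 FPKM in ovulated CKO, 58.2 ± 26.3 FPKM in ovulated WT (SD, n = 3 each), 38.0 ± 9.13 FPKM in GV CKO and 43.8 ± 7.14 FPKM in GV WT oocytes (SD, n = 4 each). Nlrp4c averaged 6.97 ± 0.502 FPKM in ovulated CKO and 4.70 ± 1.47 FPKM in ovulated WT oocytes, with 6.04 ± 2.91 FPKM in GV CKO and 6.01 ± 1.04 FPKM in GV WT oocytes. The gap between Nlrp4e and Nlrp4c held in 14 of 14 libraries, with no overlap of their ranges in any group, although these are the closest copies and share reads.

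**Figure D1:**
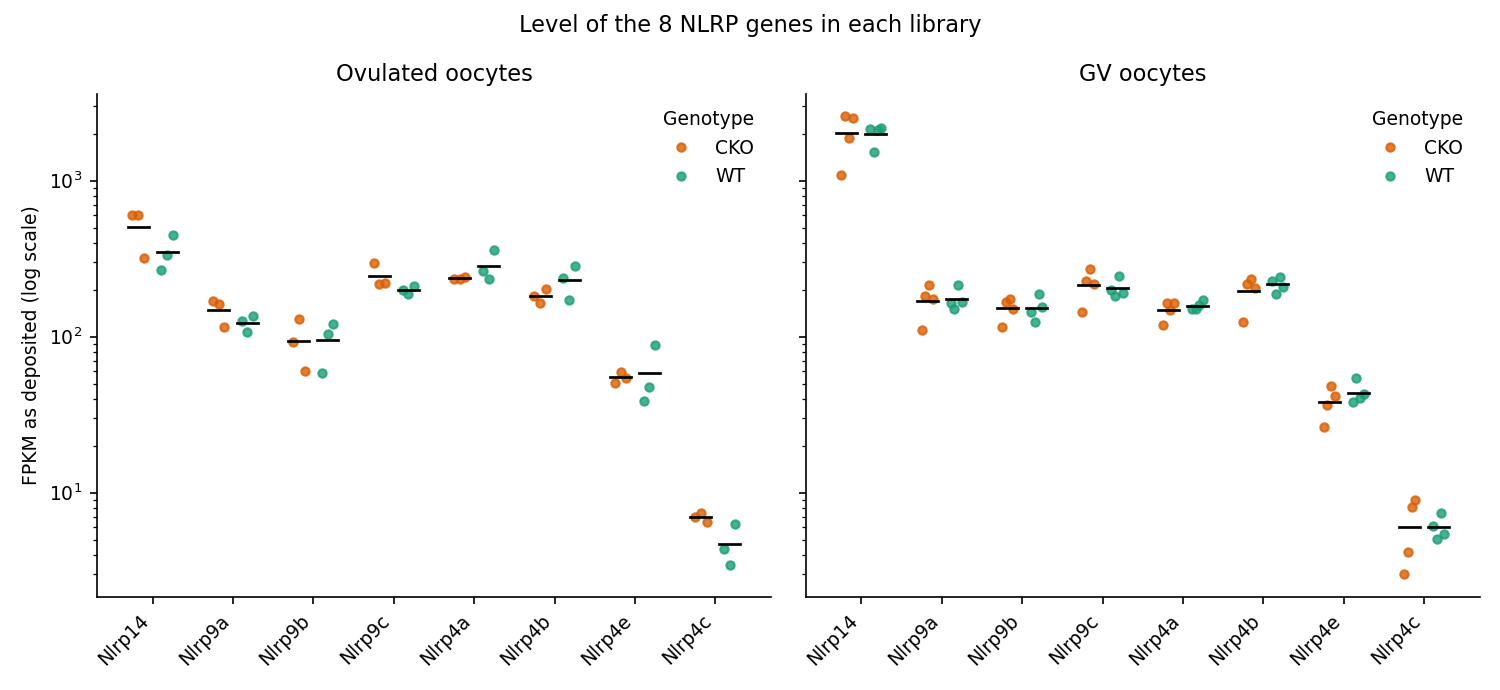
FPKM of the 8 genes on a log scale in ovulated (left) and GV oocytes (right), with 1 point per library and a bar at the group mean. The stages come from separately processed tables, and within each panel CKO (orange) and WT (green) points overlap for every gene except Nlrp4c and Nlrp9c in ovulated oocytes, where 3 CKO points lie above 3 WT points. Among all genes tested, 9.91% in ovulated and 3.16% in GV oocytes had CKO and WT libraries that did not overlap in FPKM.

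As a share of the 8 genes' summed FPKM within a library, Nlrp14 made up 33.6% ± 6.60 in ovulated CKO oocytes against 67.6% ± 5.34 in GV CKO oocytes, and 25.8% ± 3.01 in ovulated WT oocytes against 67.4% ± 2.84 in GV WT oocytes (SD, n = 3 ovulated and n = 4 GV). Such a share does not depend on how libraries are scaled. The Nlrp4a share was 16.4% ± 3.05 in ovulated CKO against 5.31% ± 1.07 in GV CKO oocytes, and 21.1% ± 1.33 in ovulated WT against 5.40% ± 0.629 in GV WT oocytes. Within a library, Nlrp4a stood at 0.389 to 0.764 of the Nlrp14 level in ovulated CKO and 0.700 to 0.983 in ovulated WT, compared with 0.0637 to 0.110 in GV CKO and 0.07004 to 0.0973 in GV WT oocytes. No ovulated library came near the GV range. The length that the tables imply for a gene (count over FPKM, relative to the median gene) had ovulated over GV ratios of 0.997 to 1.01 for 7 members and 1.09 for Nlrp4a, so the Nlrp4a FPKM is that much lower in the ovulated table for the same count.

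**Figure D2:**
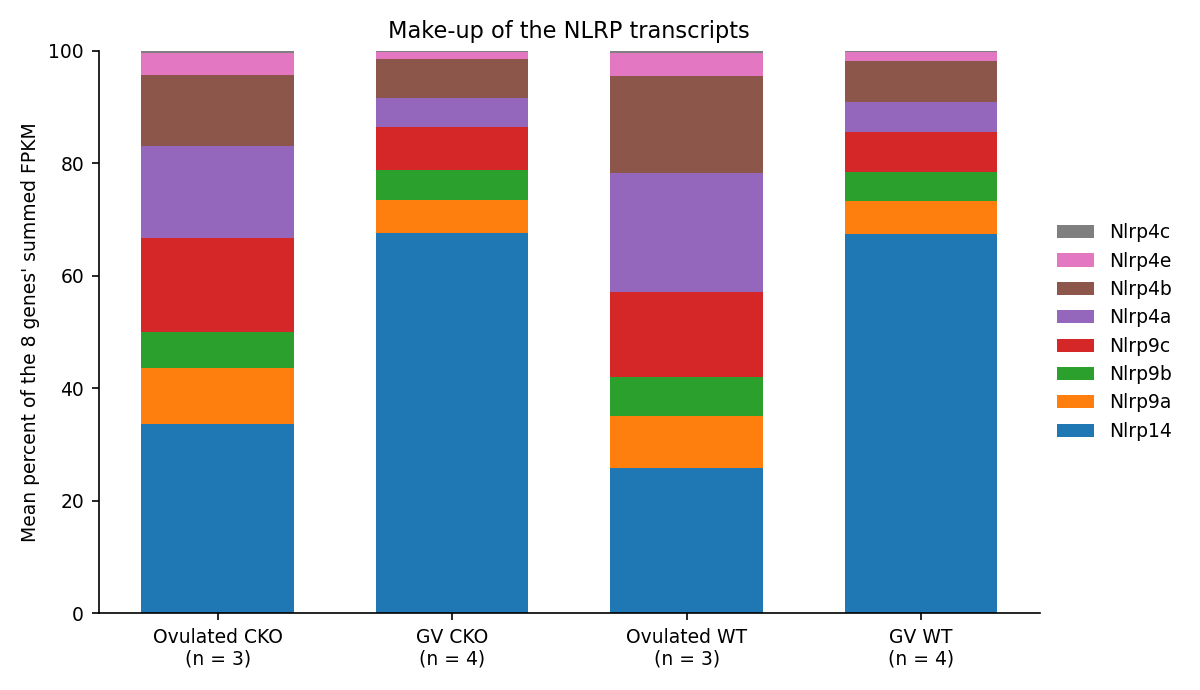
Mean share of the 8 genes' summed FPKM taken by each gene, in percent of the sum within a library, for ovulated and GV oocytes of each genotype. The lowest block, Nlrp14, takes 33.6% and 25.8% in the ovulated CKO and WT bars, against 67.6% and 67.4% in the GV CKO and WT bars.

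The comparison of ovulated with GV oocytes asked how the transcripts differed across meiotic resumption in each genotype, in a fit of all 14 libraries on counts. In WT oocytes 4 of 8 members passed an edgeR adjusted p of 0.05, Nlrp14, Nlrp9a and Nlrp9b lower and Nlrp4a higher in ovulated oocytes. Of all 13158 genes tested, 63.7% passed in this comparison, 29.7% higher and 34.0% lower, so 4 of 8 is no excess over this background. In CKO oocytes 3 of 8 passed, Nlrp14, Nlrp9a and Nlrp9b, all lower in ovulated oocytes, against 55.7% of all genes (25.8% higher, 29.9% lower). The ovulated libraries lay wholly below the GV libraries for 2 of 8 members in CKO, beside 31.2% of all genes (58.6% apart in either direction), and for 4 of 8 in WT, beside 35.1% (62.3% in either direction). The median log2 fold change of the 8 members was −0.58 in CKO and −0.51 in WT oocytes, beside −0.14 and −0.08 over all genes.

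Nlrp14 fell the furthest of the members in both genotypes. In CKO oocytes it had 1465, 1342 and 859 CPM in the ovulated libraries, against 3726, 10842, 5441 and 11629 CPM in the GV libraries. The groups did not overlap, and the GV libraries spread over more than the ovulated ones. The fall was 6.47-fold (log2 fold change −2.69, SE 0.427, edgeR adjusted p = 8.54e-05). In WT oocytes it had 791, 749 and 1184 CPM in the ovulated libraries, against 6086, 5590, 5669 and 9215 CPM in the GV libraries. Here too every ovulated library lay below every GV library, and the fall was 7.31-fold (log2 fold change −2.87, SE 0.431, edgeR adjusted p = 3.22e-05). As a percent of all counts Nlrp14 took 0.154 ± 0.0495 in ovulated CKO and 0.107 ± 0.0280 in ovulated WT oocytes (SD, n = 3 each), compared with 0.611 ± 0.210 in GV CKO and 0.604 ± 0.0927 in GV WT oocytes (SD, n = 4 each).

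The Nlrp9 genes differed in size of change. Nlrp9b in CKO oocytes had 238, 301 and 172 CPM when ovulated, against 407, 723, 522 and 715 CPM at the GV stage, without overlap. This is a 2.495-fold fall (log2 fold change −1.32, SE 0.302, edgeR adjusted p = 0.00152). In WT oocytes Nlrp9b had 184, 248 and 325 CPM in ovulated libraries, against 423, 463, 522 and 670.3 CPM in GV libraries, again apart, a 2.06-fold fall (log2 fold change −1.04, SE 0.298, edgeR adjusted p = 0.00604). With total counts and no scaling factors neither Nlrp9b call was kept (log2 fold change −0.66 in both genotypes, edgeR adjusted p = 0.0614 in CKO and 0.0546 in WT).

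Nlrp9a had 389, 339.6 and 294 CPM in ovulated CKO oocytes, against 351, 725, 599 and 768 CPM in GV CKO oocytes. The lowest GV library lay within the ovulated range, and the log2 fold change was −0.84 (SE 0.288, edgeR adjusted p = 0.0201). In WT oocytes it had 359, 229.8 and 351 CPM when ovulated, against 450.5, 521, 546 and 672 CPM at the GV stage, without overlap (log2 fold change −0.81, SE 0.288, edgeR adjusted p = 0.0221). Without GV WT replicate 4 or ovulated WT replicate 2 the Nlrp9a call in WT was lost (edgeR adjusted p = 0.0802 and 0.0757). The CKO call was lost without GV CKO replicate 2 or 4 or ovulated CKO replicate 3 (edgeR adjusted p = 0.0911, 0.0935 and 0.0675). Among further settings that ended the Nlrp9a calls, total counts gave a log2 fold change of −0.20 in CKO and −0.47 in WT (edgeR adjusted p = 0.507 and 0.110).

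Nlrp9c did not pass in either genotype, with a log2 fold change of −0.41 in CKO (SE 0.275, edgeR adjusted p = 0.21) and −0.35 in WT oocytes (SE 0.275, edgeR adjusted p = 0.269). Its level relative to Nlrp9b, taken as a ratio of FPKM within a library, was 1.67 to 3.67 in ovulated CKO and 1.76 to 3.40 in ovulated WT oocytes, above the 1.25 to 1.56 of GV CKO and the 1.24 to 1.47 of GV WT oocytes. Since the 3 genes share reads, their summed CPM was also taken, a step added after the data had been seen. It was 1178 in ovulated CKO against 2003 in GV CKO oocytes (log2 ratio of means −0.77), and 1085 in ovulated WT against 1732 in GV WT oocytes (log2 ratio −0.67).

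Among the Nlrp4 genes only Nlrp4a passed, higher in ovulated WT oocytes. It had 969, 665.5 and 1025 CPM in ovulated WT libraries, against 463, 623, 528 and 708 CPM in GV WT libraries, with 1 ovulated library below the highest GV library. The rise was 0.61 on the log2 scale (SE 0.260, edgeR adjusted p = 0.0496), and the call was lost on leaving out any of 5 libraries (ovulated WT replicate 1 or 3, or GV WT replicate 1, 2 or 3, edgeR adjusted p = 0.054 to 0.158) and with the libraries of the 2 groups alone (0.0792). In CKO oocytes Nlrp4a had 719, 666 and 826 CPM when ovulated, against 511, 762, 506 and 762 CPM at the GV stage, and did not pass (log2 fold change 0.21, SE 0.261, edgeR adjusted p = 0.5). Scaled to total counts it did pass in CKO (log2 fold change 0.85, edgeR adjusted p = 0.00119).

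The other Nlrp4 genes did not pass. Nlrp4b had a log2 fold change of −0.72 in CKO (SE 0.314, edgeR adjusted p = 0.0611) and −0.23 in WT oocytes (SE 0.310, edgeR adjusted p = 0.536). Nlrp4c had 14.2, 8.61 and 18.6 CPM in ovulated WT libraries, all below the 19.3, 20.5, 22.2 and 25.3 CPM of GV WT libraries, with a log2 fold change of −0.66 that did not pass (SE 0.371, edgeR adjusted p = 0.128). In CKO oocytes its groups overlapped (log2 fold change −0.43, SE 0.368, edgeR adjusted p = 0.326). Nlrp4e was near level, with log2 fold changes of −0.07 in CKO and 0.04 in WT oocytes (SE 0.315 and 0.314). Scaling to total counts raised all genes together, with medians over all genes of 0.45 in CKO and 0.26 in WT oocytes. Nlrp14 then had log2 fold changes of −1.99 in CKO and −2.496 in WT and passed in both. Relative to that median, Nlrp14 was at −2.43 in CKO and −2.75 in WT, Nlrp9b at −1.11 and −0.92, and Nlrp4a at 0.40 and 0.71, close to the values relative to the median under the scaling used here (−2.55 and −2.79 for Nlrp14, −1.18 and −0.96 for Nlrp9b, 0.36 and 0.69 for Nlrp4a). The stages were deposited as separate tables in which 241 of the shared gene IDs carry different symbols, so stage and table cannot be told apart.

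**Figure D3:**
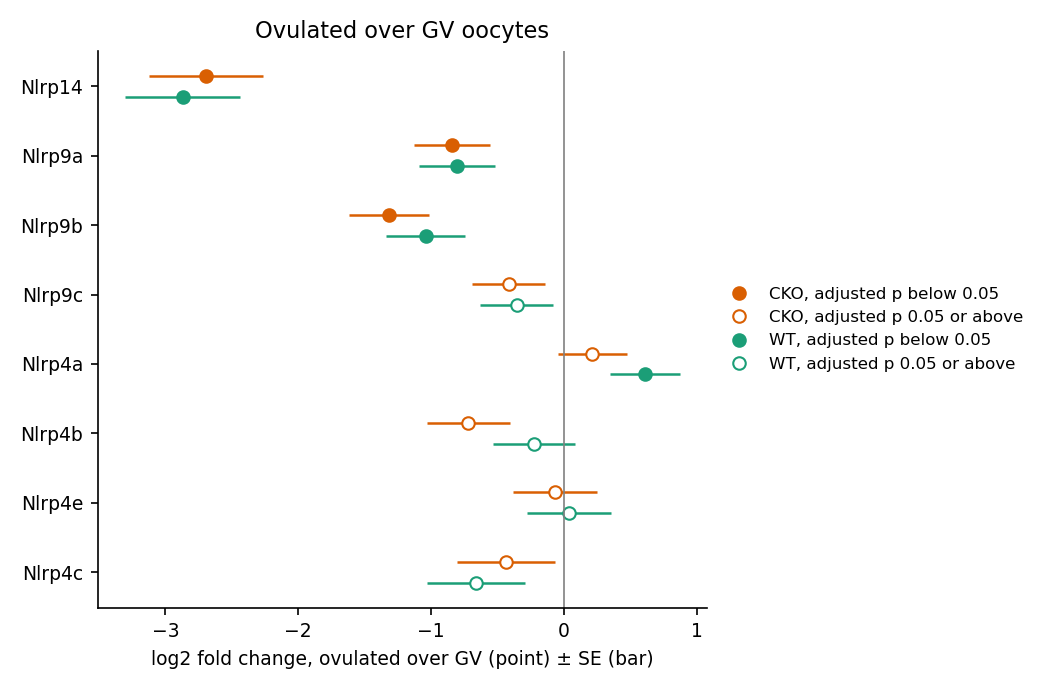
Log2 fold change of each gene, ovulated over GV, with its SE, in CKO (orange) and WT (green) oocytes; filled points have an edgeR adjusted p below 0.05. Nlrp14 lies near −2.7 and −2.9 and the Nlrp9 and Nlrp4 genes between −1.32 and 0.61.

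The comparison of CKO with WT oocytes asked whether loss of Clpx changed these transcripts at either stage. No member passed in ovulated or in GV oocytes, and the CKO and WT libraries of each member overlapped in CPM at both stages. Among all genes 1 of 12044 passed in ovulated oocytes (0.00830%) and 3 of 12265 in GV oocytes (0.0245%), while 10.4% and 3.82% of genes had groups that did not overlap in CPM. No member reached an unadjusted edgeR p of 0.05, and DESeq2 called none. The SE of the members' log2 fold changes was 0.236 to 0.397, so a change of this order could not be told from 0, and larger changes could be missed too. In simulated counts, with changes planted in genes drawn at random, the test recovered 8% of 2-fold changes in ovulated and 42% in GV oocytes. It recovered 77% of 4-fold changes in ovulated and 100% in GV oocytes.

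In ovulated oocytes 4 members had higher and 4 lower CKO means on the fitted scale, with a median log2 fold change of −0.01 beside −0.00 over all genes. Nlrp14 had 1685, 1604 and 1090 CPM in ovulated CKO libraries, against 957, 923 and 1437 CPM in ovulated WT libraries (CPM here scaled within the stage). The third CKO library lay within the WT range, and the log2 fold change was 0.40 (SE 0.319, edgeR adjusted p = 0.794). Nlrp4c had the most positive value at 0.45 (SE 0.347, adjusted p = 0.787 by edgeR) and Nlrp4b the most negative at −0.44 (SE 0.328, adjusted p = 0.775 by edgeR). Nlrp4b stood at 513, 439 and 691 CPM in ovulated CKO and 849, 475 and 908 CPM in ovulated WT libraries, where the low WT library fell below the CKO mean.

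In GV oocytes 7 of 8 members had a positive log2 fold change, from 0.06 for Nlrp4b to 0.27 for Nlrp9c, and Nlrp4e was at −0.05. The median of the members was 0.18, beside 0.02 over all genes. The members were correlated within groups, so their signs are not separate observations. Scaled to total counts, 5 of the 8 were below 0, and the median over all genes moved to −0.14. Nlrp14 had 3103, 9357, 4747 and 10374 CPM in GV CKO libraries, against 5391, 4742, 4985 and 7925 CPM in GV WT libraries. The CKO libraries held both the lowest and the 2 highest values, so the WT range lay inside the CKO range (log2 fold change 0.26, SE 0.397, edgeR adjusted p = 0.921). Nlrp9c had 409, 813, 680.0 and 880.3 CPM in GV CKO and 496, 552, 575 and 683 CPM in GV WT libraries, the same arrangement (log2 fold change 0.27, SE 0.258, edgeR adjusted p = 0.873).

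**Figure D4:**
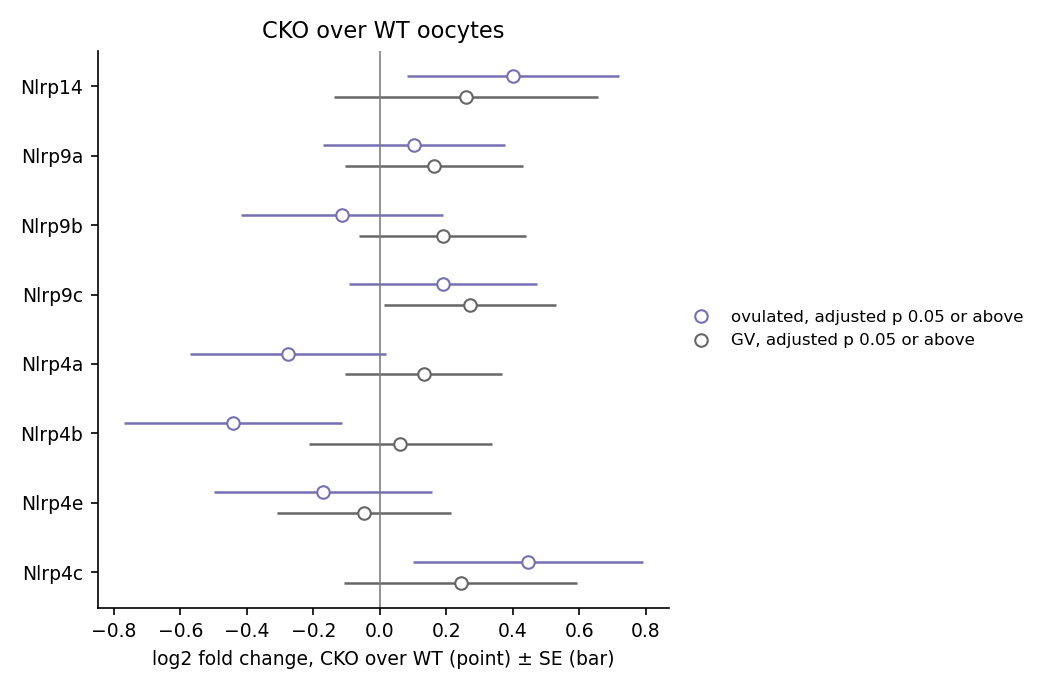
Log2 fold change of each gene, CKO over WT, with its SE, in ovulated and in GV oocytes. All 16 points are open, since no member passed an edgeR adjusted p of 0.05, and they lie between −0.44 and 0.45.

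A test of the difference between the CKO effects of the 2 stages (ovulated minus GV) called no member. Of all 13158 genes 1 passed (0.00760%), and no member had an unadjusted p under 0.05. In simulated counts this test recovered 3% of 2-fold and 45% of 4-fold differences planted in genes drawn at random. Over such genes most differences of that size would be missed, and the rates for the members themselves were not measured. The differences ran from −0.49 for Nlrp4b (SE 0.437, edgeR adjusted p = 0.815) to 0.23 for Nlrp4c (SE 0.516, edgeR adjusted p = 0.953). Nlrp4a, called in the stage comparison of WT oocytes and not in that of CKO oocytes, had a difference of −0.40 (SE 0.371, edgeR adjusted p = 0.83), so the genotypes were not shown to differ in its change.

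In some libraries the members lay together above or below the mean log2 CPM of their group, and in others they were split. In GV CKO replicate 1 all 8 members lay below the group mean, by a median of 0.75 on the log2 scale, and in GV CKO replicate 4 all 8 lay above it, by a median of 0.44. In GV WT oocytes all 8 were above the group mean in replicate 4 and below it in replicate 1. Of the ovulated WT libraries, replicate 3 had all 8 members above the group mean and replicate 2 had 7 below. GV CKO replicate 3 and GV WT replicate 3 had 4 members above and 4 below, and the ovulated CKO libraries had 3, 2 and 5 of 8 above. In ovulated CKO replicate 3, Nlrp14 stood at −0.395 and Nlrp4b at 0.36 from their group means. In GV oocytes the scaling factors within the stage were 1.07, 0.838, 1.198 and 0.733 in CKO replicates 1 to 4 and 1.21, 0.983, 1.28 and 0.838 in WT replicates 1 to 4, so the libraries with the highest factor of each group were the evenly split ones. The most abundant gene took 6.69% and 8.77% of the counts in replicates 1 and 4 of GV CKO and 6.43% and 7.47% in replicates 1 and 4 of GV WT oocytes. In FPKM, which does not use these factors, GV WT replicates 1 and 4 were split. Replicate 4 had 2186 FPKM of Nlrp14 against a group mean of 1990, but 191 of Nlrp9c against 204. Replicate 1 had 2146 FPKM of Nlrp14, but 150 of Nlrp4a against a group mean of 157. GV CKO replicate 1 was low in FPKM too, with 1090 against 2012 for Nlrp14 and 145 against 215 for Nlrp9c. GV CKO replicate 4 was not above the group mean for all 8 in FPKM. Its Nlrp9b had 149.8 against 151.5 and its Nlrp9c 216.1 against 214.6, although its Nlrp14 had 2512 against 2012. The part of library composition in these deviations was not tested. The summed level of 10 other NLRP genes in the same libraries was 2461 CPM in GV CKO replicate 1 and 6763 CPM in GV CKO replicate 4. The 14 oocyte markers summed to 24565 CPM in replicate 1 and 51930 CPM in replicate 4 of GV CKO. Their sum in GV CKO replicate 3 was 23945 CPM. A low replicate 1 and a high replicate 4 were therefore not particular to NLRP genes.

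**Figure D5:**
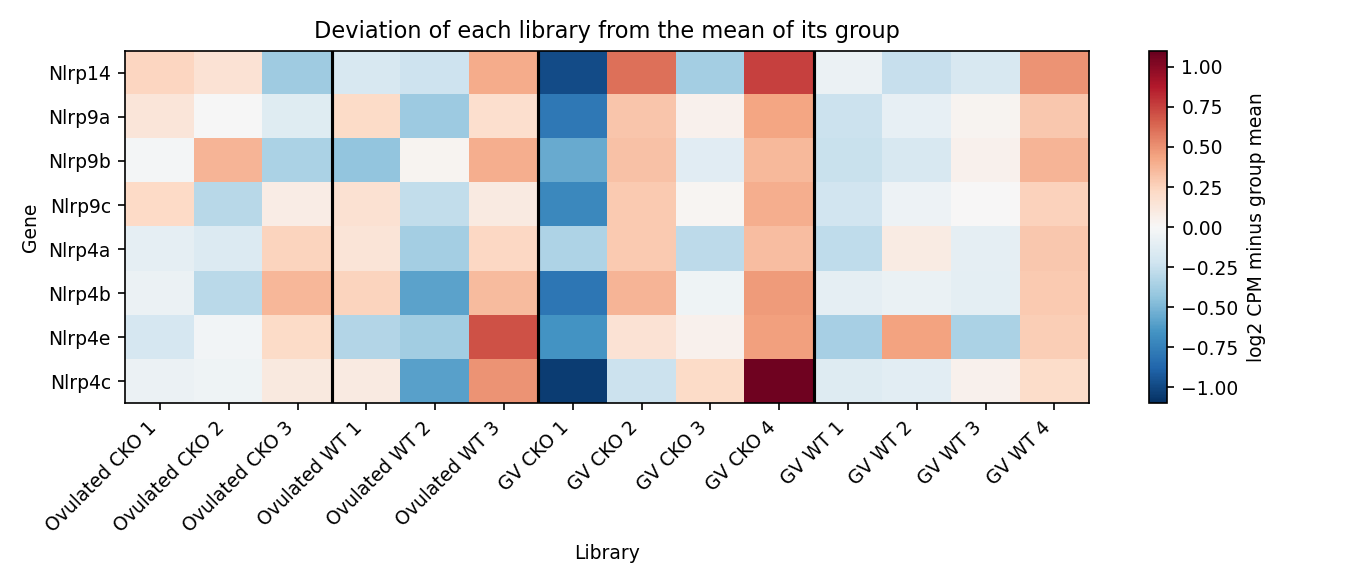
Log2 CPM of each gene minus the mean of its group, for the 14 libraries, red above and blue below the group mean. The column of GV CKO replicate 1 is blue for all 8 genes (−1.04 to −0.34) and that of GV CKO replicate 4 red for all 8 (0.34 to 1.07).

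After subtraction of group means, each pair of members had a positive Pearson r over the 14 libraries, from 0.38 for Nlrp4b with Nlrp9b to 0.93 for Nlrp9a with Nlrp9c. These libraries share scaling factors, and some genes share reads, so the correlations are descriptive. Without that subtraction Nlrp4a stood apart from the profile of the members (mean of their standardised log2 CPM), with an r of 0.15, whereas the other 7 had r between 0.67 and 0.92. Each member is itself part of that profile, which raises its r, so these values are descriptive too. Of 6775 other genes with a mean of at least 10 CPM, the 5 with the highest r to this profile over the 14 libraries were Wee2, an oocyte kinase that holds meiotic arrest (0.93), Taf9b, a TFIID subunit (0.92), Laptm4b (0.91), Cnot2, a subunit of the CCR4-NOT deadenylase (0.90), and Cdc42 (0.89). Within groups they were Vps26a, a retromer subunit (0.94), Nlrp4g (0.93), Wdr36, a ribosome biogenesis factor (0.92), Xlr3c (0.91) and Cdc42 (0.91).

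The remaining NLRP genes give the setting. Of 12 on a list of further family members, 10 stood in both tables, and Nlrp2, Nlrp4f, Nlrp4g and Nlrp5 were abundant. Each of these 4 was lower in ovulated oocytes of both genotypes. Nlrp5, a core protein gene of the subcortical maternal complex, had 414 ± 199 CPM in ovulated CKO (SD, n = 3) against 1369 ± 553 CPM in GV CKO oocytes (SD, n = 4; log2 fold change −1.73, edgeR adjusted p = 0.001595). In WT oocytes Nlrp5 had 255 ± 34.1 CPM when ovulated against 1601 ± 379 CPM at the GV stage (log2 fold change −2.65, edgeR adjusted p = 4.64e-05). The log2 fold change of Nlrp2 was −2.499 in CKO and −2.96 in WT oocytes, that of Nlrp4g −2.62 in CKO and −2.25 in WT, and that of Nlrp4f −1.55 in CKO and −0.93 in WT (edgeR adjusted p from 3.22e-06 to 0.0248). Nlrp4g is annotated as a transcribed pseudogene on chromosome 9. None of the 4 passed between CKO and WT at either stage (edgeR adjusted p from 0.692 to 0.965). Nlrp1a, Nlrp1b, Nlrp3, Nlrp6, Nlrp10 and Nlrp12 stayed at or under 0.697 CPM in every library, and Nlrp12 was at 0 in all ovulated WT libraries.

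Of the 8 subcortical maternal complex and lattice genes, 7 fell past the threshold in ovulated oocytes of both genotypes, with Zbed3 the exception. Of all genes, 29.9% in CKO and 34.0% in WT were lower past the threshold. The list includes Nlrp2, Nlrp4f and Nlrp5, described above, so it is not a separate setting. Its median log2 fold change was −2.35 in CKO and −2.80 in WT oocytes, beside −0.14 and −0.08 over all genes. The log2 fold change of Tle6 was −3.33 in CKO and −4.91 in WT, that of Khdc3 −2.21 in CKO and −4.68 in WT, and that of Padi6 −3.91 in CKO and −4.33 in WT (edgeR adjusted p from 4.46e-06 to 0.015). Zbed3 rose by 1.17 in WT (edgeR adjusted p = 0.00547) and stood at 0.71 in CKO oocytes (adjusted p = 0.0757 by edgeR). The values of Nlrp14, −2.69 in CKO and −2.87 in WT, lay within the range of the 7 that fell, which ran from −3.91 to −1.55 in CKO and from −4.91 to −0.93 in WT.

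A list of 4 genes set beside Nlrp14 held Uhrf1 and Slc8b1, named above, with Dnmt1 and Ube3a, whose tie to NLRP14 was not examined here. Of the 3 that could be tested, none fell past the threshold and Ube3a rose in both genotypes. Of all genes, 25.8% in CKO and 29.7% in WT oocytes were higher past the threshold, and 29.9% and 34.0% were lower. Ube3a, a ubiquitin ligase gene, was at 152 ± 13.2 CPM in ovulated CKO against 47.1 ± 11.5 CPM in GV CKO oocytes (log2 fold change 1.69, edgeR adjusted p = 5.7e-05). In WT oocytes Ube3a had 134 ± 23.9 CPM when ovulated against 37.7 ± 10.7 CPM at the GV stage (log2 fold change 1.83, edgeR adjusted p = 1.75e-05). Uhrf1, which recruits the maintenance DNA methyltransferase, had log2 fold changes of 0.25 in CKO and 0.43 in WT oocytes and did not pass (edgeR adjusted p = 0.487 and 0.211). Dnmt1, that methyltransferase, stood at −0.56 and −0.32 and did not pass (edgeR adjusted p = 0.145 and 0.391). Slc8b1 was detected in 7 of 14 libraries, at no more than 0.324 CPM.

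Inflammasome genes were at or near 0 for the adaptor and effectors. Pycard and Casp4, which stood in the GV table only, and Gsdmd and Il1b did not exceed 0.171 CPM and Casp1 0.892 CPM in any library. Of 19 listed, 7 could be tested between stages. Nlrc4, a sensor adaptor, was higher in ovulated oocytes of both genotypes (log2 fold change 0.69 in CKO and 1.25 in WT, edgeR adjusted p = 0.0273 and 0.00043), as was the kinase gene Nek7 (0.95 and 1.07, edgeR adjusted p = 0.00486 and 0.00176). The log2 fold change of Naip5 was −3.30 in CKO and −2.29 in WT oocytes, and that of Naip1, a sensor of bacterial secretion proteins, −1.73 in CKO and −1.89 in WT (edgeR adjusted p from 3.1e-05 to 0.00132). Il18 also fell (−2.99 in CKO and −3.86 in WT, edgeR adjusted p = 0.0176 and 0.00471) but did not exceed 1.29 CPM in any library. Txnip, a thioredoxin-binding protein gene, fell in WT (−1.30, edgeR adjusted p = 0.0201). No gene of the list passed between CKO and WT at either stage.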

How the data were processed

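RNA of 14 mouse oocyte libraries was copied with SMART-SeqII, per the labels' protocols. Per the submitters' processing notes the genome build was mm10. The aligner, counting tool and annotation are not given in the sources used here. For each stage the authors deposited a table of expected counts (14.4% to 16.3% of a library's values were fractional) and a table of FPKM scaled by gene length and library size. Counts were rounded and tested with edgeR 4.0.16 in R 4.3.3 by the quasi-likelihood test with robust fitting, after TMM scaling and the filterByExpr filter (minimum count 10). Adjusted p-values are Benjamini-Hochberg values over every gene tested. Genotypes were compared within a stage, stages and the stage difference in a fit of all 14 libraries on the 16417 gene IDs in both tables. CPM is the count per 1e+06 of the TMM-scaled library size.

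The 8 members, the gene lists and the tests were chosen with earlier results of these data known. Named genes were Clpx, the members, and up to 4 members of each list that passed with the largest fold change. All listed NLRP genes and the genes listed beside Nlrp14 were named too. So were 5 genes by likeness to the members, with and without group means. Alternatives were RLE factors, total counts, no filter, DESeq2 1.42.0, limma-voom 3.58.1, replicate numbers as a block, each replicate left out, and other sets of libraries. Each test was tried on simulated counts. Changes of 2-fold and of 4-fold were planted in 100 genes each, drawn at random from genes with a mean of at least 10 CPM. The rates recovered are therefore averages over such genes and not values for the members. Gene models are GENCODE M21 and promoters RefSeq GRCm38.p6. Shared windows and motifs were searched in 1 transcript a gene, and an alignment of whole coding sequences gave identities.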

Additional observations from a re-analysis of the deposited data

Results flagged for a closer look

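In 16 pairs of a member and a GV group, 1 library stood far from the other 3 of its group in scaled CPM. Nlrp4b had 752 CPM in GV WT replicate 4, above the other 3 GV WT libraries, which lay between 571 and 584 CPM. The gap to the next library was 0.918 of the whole range of the group. In FPKM, which does not use the TMM factors, GV WT replicates 1 to 4 had 229, 189, 240 and 207, so replicate 4 did not stand apart. Its TMM factor within the stage, 0.838, was the lowest of the GV WT libraries. Chance flags about 1 in 20 groups. No member passed the test of the difference between the stages in its CKO effect.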

How the results depend on the processing

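No member passed between CKO and WT, or in the stage difference, under any alternative run. The fall of Nlrp14 passed under every alternative (log2 fold change −2.84 to −1.99 in CKO, −3.10 to −2.50 in WT). With total counts and no scaling factors 2 members passed in WT in place of 4, and 3 passed on leaving out any 1 replicate. Under total counts Nlrp9b was at −0.66 in both genotypes (edgeR adjusted p = 0.0614 in CKO, 0.0546 in WT). Nlrp9a was then at −0.20 in CKO and −0.47 in WT (edgeR adjusted p = 0.507 and 0.110), and with the 2 groups only it did not pass in CKO (0.0629). Under total counts the sign turned for CKO over WT in GV oocytes in Nlrp4a (−0.058), Nlrp4b (−0.14), Nlrp9a (−0.034) and Nlrp9b (−0.0064), for ovulated over GV in CKO in Nlrp4c (0.22), Nlrp4e (0.56) and Nlrp9c (0.21) and in WT in Nlrp4b (0.11), and for the stage difference in Nlrp4e (0.13), Nlrp9a (0.26), Nlrp9b (0.00076) and Nlrp9c (0.22). It turned under limma-voom for Nlrp4e in WT (−0.0032) and the stage difference of Nlrp9a (0.026), and with the 2 groups only for Nlrp4e in CKO (0.025). None of these passed, and the cause was not tested.

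Genes passing over the whole table numbered 3 in GV oocytes between CKO and WT, 39 by DESeq2 and 3 to 6 on leaving out a replicate (6 without GV CKO replicate 1 or 4). In ovulated oocytes they numbered 1, 114 by DESeq2, 64 in the 14-library fit and 1 to 201 on leaving out a replicate (201 without CKO replicate 3, 3 without WT replicate 3). For the stage difference they numbered 1, 64 by DESeq2, 0 by limma-voom and 0 to 498 on leaving out a replicate (498 without ovulated CKO replicate 3, 2 without ovulated WT replicate 3).

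On leaving out each replicate the sign turned for some values that did not pass. For CKO over WT in GV oocytes Nlrp4b ran from −0.094 to 0.26, Nlrp4c from −0.22 to 0.497, Nlrp4e from −0.21 to 0.13 and Nlrp14 from −0.0050 to 0.502. In ovulated oocytes Nlrp4e ran from −0.38 to 0.22, Nlrp9a from −0.072 to 0.17 and Nlrp9b from −0.34 to 0.057. For ovulated over GV, Nlrp4c ran from −0.59 to 0.13 and Nlrp4e from −0.15 to 0.20 in CKO, and Nlrp4e from −0.39 to 0.25 in WT. For the stage difference Nlrp4e ran from −0.28 to 0.32, Nlrp9a from −0.18 to 0.19, Nlrp9c from −0.20 to 0.14 and Nlrp14 from −0.023 to 0.52.

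The correlations did not settle whether the replicate numbers pair the samples. Same-numbered CKO and WT libraries had deviations correlated at −0.297 to 0.658 in GV and −0.316 to 0.473 in ovulated oocytes. Differently numbered ones ran from −0.654 to 0.389 in GV and from −0.473 to 0.508 in ovulated oocytes. With the number as a replicate block, 0 genes passed for the stage difference, and Nlrp9a did not pass between stages (edgeR adjusted p = 0.0630 in CKO, 0.0634 in WT). Under the block Nlrp4b was at −0.0036 between genotypes in GV oocytes, Nlrp4e at 0.086 between stages in CKO and Nlrp9a at 0.029 for the stage difference. Nlrp4a passed in CKO under total counts (0.85, edgeR adjusted p = 0.00119), and Nlrp4b passed in CKO under DESeq2 and without ovulated CKO replicate 3 or GV CKO replicate 1 (adjusted p from 0.0247 to 0.0494). Library depth was similar throughout, and shared reads limit the values of Nlrp4e and Nlrp4c.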
